A study of Mus musculus with 6 samples.

Results

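*Zfp36*, *Zfp36l1*, *Zfp36l2*, *Zc3h12a*, *Zc3h12c*, *Rc3h1*, *Elavl1*, *Hnrnpd*, and *Khsrp* encode proteins that bind cytokine mRNAs and shorten or lengthen their life. These 9 genes, of 34844 gene names on the array, were taken by symbol, and every probe that the array design gave to one of them was kept, which made 12 of 55681 probes. Of these genes, 6 had 1 probe each, and *Rc3h1*, *Elavl1*, and *Khsrp* had 2. All 12 probes were well above background on all 6 arrays, so that no value of theirs is a bound, and no spot of theirs was flagged.

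The cells were murine bone marrow–derived macrophages (BMDMs), obtained by keeping bone marrow for 7 days in L929 conditioned medium. The mice were wild type females of the strain C57/B6, aged 6 to 8 weeks by the labels, while the methods give another range. Cells were left untreated, were given the TLR4 ligand lipopolysaccharide (LPS) at 100 ng/ml for 4 h, or received 10 μM HBX41,108, a small molecule inhibitor of the deubiquitinase USP7, 30 min ahead of the same LPS (LPS+inhibitor). One label states the LPS dose per μl instead of per ml, and no source used here says whether the other cells received the solvent of the inhibitor. Each of the 3 groups was measured on 2 arrays, from experiments described as independent, and the small number of arrays limits the precision of every value.

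Many cytokine mRNAs carry AU-rich elements or stem-loops in the untranslated region that follows the coding sequence. *Zfp36* family proteins bind AU-rich elements and bring in the CCR4-NOT deadenylase, Regnases (Zc3h12 family) cut stem-loops, and Roquin (*Rc3h1*) binds stem-loops and brings in deadenylases, whereas HuR (*Elavl1*) stabilizes many of the same mRNAs. In macrophages activated through TLR4 these proteins are known to set how long cytokine mRNAs persist, and several of them bind their own mRNA or are held in check by the p38 MAP kinase and IKK pathways.

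The arrays lay on 1 slide that was read in 1 scan, with untreated cells in slide row 1, LPS in row 2, and LPS+inhibitor in row 4, so that row and treatment cannot be told apart. Replicate 1 of each group lay in slide column 1 and replicate 2 in column 2, and these cannot be told apart either. Values are log2 signals after quantile normalization. The level of one probe was not set against that of another, because probes differ in how brightly they report the same amount of RNA. The macrophage label was checked against 7 marker genes, all 7 of which were well above background on each array. Of these, *Itgam* fell by 0.66 with LPS (adjusted p = 0.0233), and *Fcgr1* was lower with the inhibitor, at 11.60 and 11.62, than with LPS, at 13.35 and 13.08 (adjusted p = 0.0317).

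Markers of other cells were present in part. The summed signal of 8 neutrophil markers was 5247 and 6960 on the untreated arrays, 5870 and 11805 after LPS, and 6206 and 9795 after LPS+inhibitor, a sum higher in replicate 2 of each group, although *Mpo* and *Ly6g* among them were lower in replicate 2. *Cd8a*, *Cd3g*, *Flt3*, *Clec9a*, *Xcr1*, *Col1a1*, and *Pdgfra*, which define other lineages, were not well above background on any array. *Cd3e*, *Cd4*, *Cd79a*, *Cd79b*, and *Kit* were on all 6. The log2 signal of *Kit* was 7.21 and 6.20 on the untreated arrays, 5.79 and 4.74 after LPS, and 5.73 and 4.77 after LPS+inhibitor. Its difference of −1.44 with LPS did not pass (adjusted p = 0.240), and its part in the differences with LPS below was not tested. The summed signal of 5 stromal markers was 35.4 and 66.6 on the untreated arrays, 524 and 517 after LPS, and 47.0 and 78.7 after LPS+inhibitor, of which *Pdgfrb* made up 474 and 476 after LPS, and the dendritic marker *Zbtb46*, not well above background on either untreated array, was at least 5.65-fold higher with LPS (adjusted p = 0.00435); their part in the differences with LPS below was not tested. The platelet marker *Pf4* was bright on every array and higher in replicate 2 of each group. In bulk RNA, fewer cells of a type and less RNA per cell cannot be told apart.

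The first question was how LPS alone changed these factors. With LPS, 5 of the 12 probes were higher than in untreated cells, 2 were lower, and 5 did not pass the threshold, an adjusted p of 0.05 from limma with Benjamini-Hochberg adjustment over all probes tested. Over all 55680 probes tested, 7.09% were higher and 10.7% lower, a balance that turned with 75th percentile scaling, from 39.9% to 79.3% of calls being higher. Over the 20720 probes well above background on all arrays, as the 12 were, 14.6% were higher and 22.4% lower. When untreated replicate 1, LPS replicate 1, or LPS replicate 2 was left out, 4 of the 12 probes passed. The median log2 difference was 0.62 over the 12 probes and 0.00448 over all probes.

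*Zfp36* and its paralogs parted. *Zfp36* encodes tristetraprolin, the best studied of the proteins that bind AU-rich elements. Its log2 signal was 7.30 and 7.01 on the untreated arrays, 9.70 and 9.56 after LPS, and 9.40 and 9.64 after LPS+inhibitor. Both arrays of each LPS-treated group lay above both untreated arrays, and the LPS and LPS+inhibitor arrays overlapped. *Zfp36* rose by 2.47 with LPS (SE 0.15, adjusted p = 0.00418), a 5.55-fold increase. With the inhibitor it differed from LPS by −0.11, with a 95% confidence interval from −0.53 to 0.30 (adjusted p = 0.760).

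The probe for *Zfp36* itself holds a form of the element that the protein is known to bind. The stretch is shown because *Zfp36* mRNA is among the known targets of its own protein, and it is written as the array files give the probe, with each ATTTA pentamer in capitals.
Zfp36: ATTTAttgtattaagattttatagtATTTA
The whole probe held 2 copies of the heptamer TATTTAT, which 574 of the 55681 probe sequences (1.03%) hold. Of the 12 probes, 1 had the heptamer and 3 had the pentamer, which 7.71% of all probe sequences contain. The letters were searched for after the values had been seen, and describe the probe, not a site of action.

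*Zfp36l1* encodes a paralog with the same pair of zinc fingers. Signals, in log2, were 12.83 and 12.61 on the untreated arrays, 9.05 and 8.88 after LPS, and 10.46 and 9.27 after LPS+inhibitor. Untreated arrays were the highest, and the replicates of LPS+inhibitor lay far apart, one close to the LPS arrays. *Zfp36l1* fell by 3.75 with LPS (SE 0.44, adjusted p = 0.0123), 13.5-fold. This SE rests on a spread pooled over the 3 groups, whose SDs were 0.16 (untreated), 0.12 (LPS), and 0.85 (LPS+inhibitor). The call was lost when any one untreated or LPS array was left out, and was kept in the fit of 2 groups. With the inhibitor it was 0.90 above LPS, with a 95% confidence interval from −0.31 to 2.10 (adjusted p = 0.363), and replicates 1 and 2 differed by 1.41 and 0.39. Without LPS+inhibitor replicate 2 this difference passed (adjusted p = 0.0402).

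*Zfp36l2* encodes the other widely expressed paralog. Its log2 signal was 15.03 and 15.07 on the untreated arrays, 10.60 and 10.55 after LPS, and 13.42 and 12.71 after LPS+inhibitor. The 3 groups did not overlap, with untreated cells highest, LPS lowest, and LPS+inhibitor between them. LPS lowered *Zfp36l2* 22.3-fold, a log2 difference of −4.48 (SE 0.26, adjusted p = 0.00391), below which lay 0.0359% of all probes. The replicates differed by −4.43 and −4.52.

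With the inhibitor, *Zfp36l2* rose by 2.49 relative to LPS (SE 0.26, 95% confidence interval 1.78 to 3.19, adjusted p = 0.0209), a 5.61-fold increase, with 2.82 in replicate 1 and 2.16 in replicate 2. Its log2 difference from untreated cells was −1.99 (adjusted p = 0.0201). That call was lost in the fit of 2 groups, which leaving out either LPS array in effect repeats, and without either untreated array. The call between LPS+inhibitor and LPS was lost when only these 2 groups were fitted (adjusted p = 0.0750). Leaving out either untreated array in effect repeats that fit, since the lone array left adds no spread, and is not a separate loss. The call was also lost when either LPS array was left out. The log2 difference between LPS+inhibitor and LPS stayed between 2.14 and 2.84 in all alternatives. *Siglech*, the only one of 5 dendritic markers well above background on all arrays, had normalized signals of 45014 and 38016 on the untreated arrays. It read 25219 and 24732 after LPS, and 51333 and 34569 after LPS+inhibitor. Its log2 differences of −0.728 with LPS and 0.754 between LPS+inhibitor and LPS did not pass (adjusted p = 0.122 and 0.149). The 5 markers summed to 45050, 38057, 25338, 24858, 51413, and 34659 on the same arrays, nearly all of it *Siglech*. *Zbtb46*, also of this list, went the other way with LPS, at least 5.65-fold higher (adjusted p = 0.00435). It differed by −0.356 between LPS+inhibitor and LPS (adjusted p = 0.315). The part of these markers in the values of *Zfp36l2* was not tested. Whether the inhibitor acted differently on *Zfp36l1* and *Zfp36l2* was not tested.

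**Figure D1:**
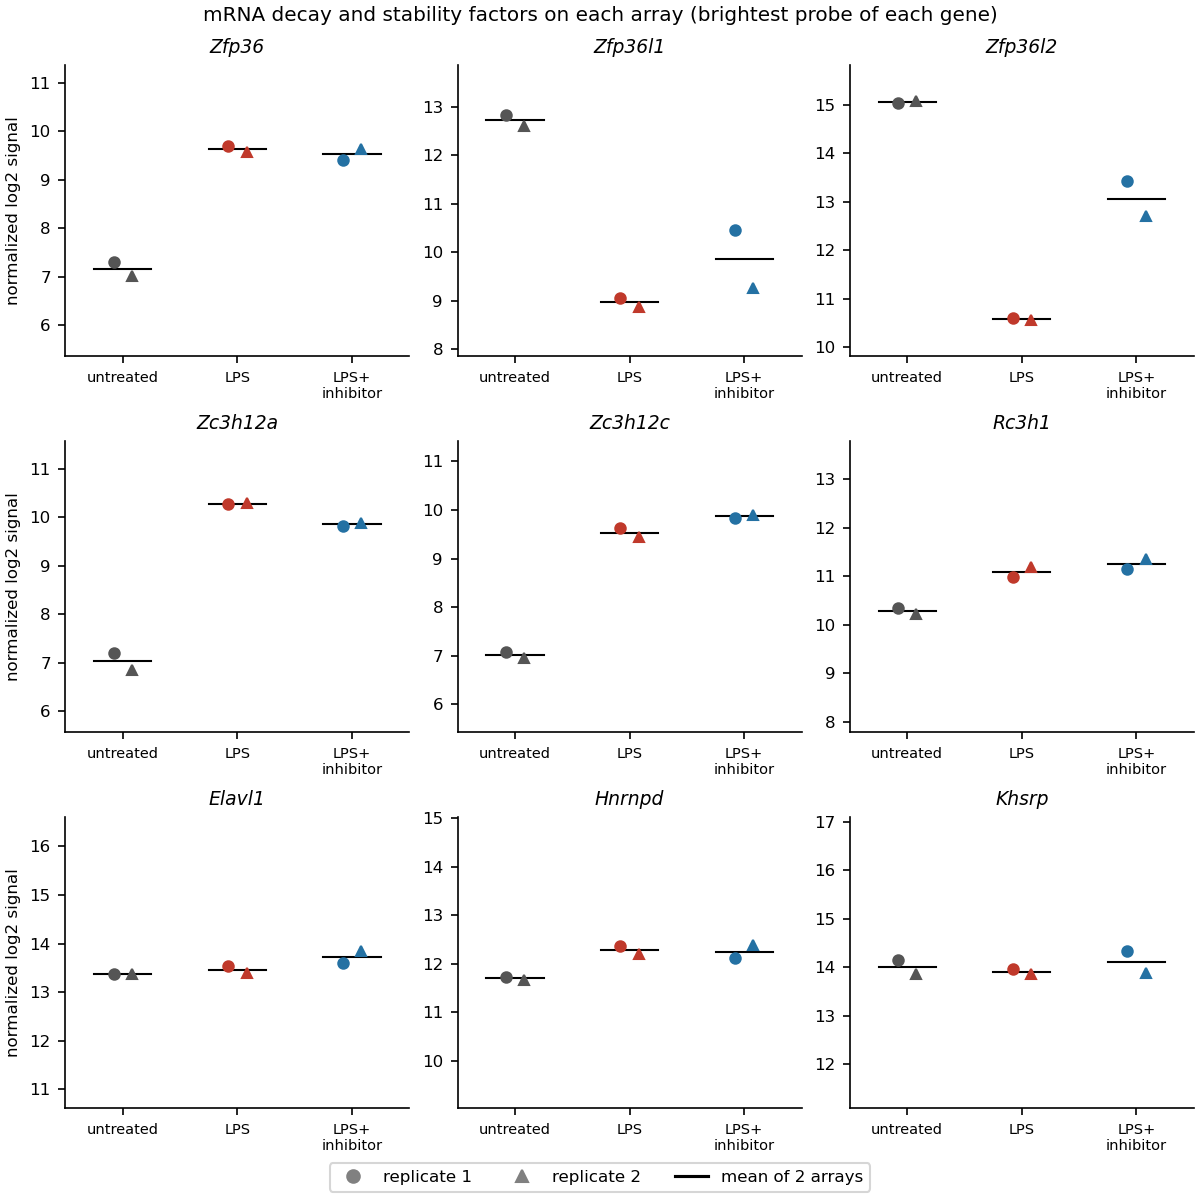
Normalized log2 signal of the brightest probe of each gene on each array, by group, with circles for replicate 1, triangles for replicate 2, and a line at the mean of 2 arrays; each panel spans the same 6 log2 units but is centred on its own gene. Zfp36, Zc3h12a, and Zc3h12c are higher on all LPS-treated arrays than on untreated arrays, whereas Zfp36l1 and Zfp36l2 are lower, with Zfp36l2 between the other groups in LPS+inhibitor.

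Of the Regnase genes, *Zc3h12a* and *Zc3h12c* both rose with LPS. *Zc3h12a* encodes Regnase-1, an endonuclease that cleaves *Il6* and other inflammatory mRNAs. Its log2 signal was 7.21 and 6.84 on the untreated arrays, 10.27 and 10.29 after LPS, and 9.83 and 9.88 after LPS+inhibitor. The 3 groups did not overlap, and LPS was the highest. *Zc3h12a* rose by 3.25 with LPS (SE 0.14, adjusted p = 0.00304), a 9.55-fold increase. The value with the inhibitor was lower on both arrays, at −0.44 and −0.42 in replicates 1 and 2, but the difference of −0.43 (95% confidence interval −0.82 to −0.04) did not pass the threshold (adjusted p = 0.179).

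*Zc3h12c* encodes a related Regnase that is prominent in myeloid cells. Log2 signals were 7.07 and 6.95 on the untreated arrays, 9.62 and 9.44 after LPS, and 9.84 and 9.89 after LPS+inhibitor. Here LPS+inhibitor was the highest group, again without overlap. *Zc3h12c* rose by 2.52 with LPS (SE 0.10, adjusted p = 0.00281), 5.74-fold, and differed by 0.33 between LPS+inhibitor and LPS (95% confidence interval 0.07 to 0.60, adjusted p = 0.140). *Zc3h12a* and *Zc3h12c* were also higher in LPS+inhibitor than in untreated cells, by 2.82 (adjusted p = 0.00543) and 2.86 (adjusted p = 0.00399), comparisons that share their arrays with those above.

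Promoter windows from RefSeq (build GRCm38.p6), reaching from 250 bases before to 50 after a start site, were given for 8 of the 9 genes, with 9 windows in all; none was given for *Zfp36l2*. They are shown for the genes that rose most and for *Zfp36l1*, because these members moved together or apart. Capitals mark matches to a kB-like motif, GGGNNNNNCC on either strand, where N is any base, or to an AP-1-like motif, TGANTCA on either strand.
Zfp36: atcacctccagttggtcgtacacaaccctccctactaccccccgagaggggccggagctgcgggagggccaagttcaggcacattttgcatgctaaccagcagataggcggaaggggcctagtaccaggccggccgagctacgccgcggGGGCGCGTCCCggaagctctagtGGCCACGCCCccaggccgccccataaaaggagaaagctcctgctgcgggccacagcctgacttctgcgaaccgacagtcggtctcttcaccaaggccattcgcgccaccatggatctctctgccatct
Zc3h12a: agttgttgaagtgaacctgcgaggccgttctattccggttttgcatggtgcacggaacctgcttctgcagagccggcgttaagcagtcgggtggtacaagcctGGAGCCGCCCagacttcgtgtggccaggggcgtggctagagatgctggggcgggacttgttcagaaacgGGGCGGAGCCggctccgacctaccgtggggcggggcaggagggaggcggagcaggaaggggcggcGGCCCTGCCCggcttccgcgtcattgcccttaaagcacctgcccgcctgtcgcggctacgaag
Zc3h12c: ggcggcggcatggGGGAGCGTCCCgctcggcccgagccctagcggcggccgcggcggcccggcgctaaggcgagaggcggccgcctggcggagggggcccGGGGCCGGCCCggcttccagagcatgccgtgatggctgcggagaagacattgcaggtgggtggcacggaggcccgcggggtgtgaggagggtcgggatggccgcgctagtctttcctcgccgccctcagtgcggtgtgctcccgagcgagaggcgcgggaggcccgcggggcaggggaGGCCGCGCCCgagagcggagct
Zfp36l1: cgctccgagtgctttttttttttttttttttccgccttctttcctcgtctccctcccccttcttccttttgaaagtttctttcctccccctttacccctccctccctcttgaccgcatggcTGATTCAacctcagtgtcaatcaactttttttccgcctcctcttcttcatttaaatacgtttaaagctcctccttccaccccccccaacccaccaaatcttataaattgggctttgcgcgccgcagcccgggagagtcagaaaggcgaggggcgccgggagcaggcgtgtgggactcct
The windows lie on the minus strand at chr7:28379179-28379478 (*Zfp36*), chr4:125127832-125128131 (*Zc3h12a*), chr9:52168357-52168656 (*Zc3h12c*), and chr12:80112964-80113263 (*Zfp36l1*). The window of *Zfp36* held 3 kB-like matches, that of *Zc3h12a* 3, the first window of *Zc3h12c* 5, and that of *Zfp36l1* 0. Overlapping matches were counted apart. Of the windows not shown, those of *Rc3h1* and *Hnrnpd*, which rose less, held 3 each. The second window of *Zc3h12c* held 2, that of *Khsrp* 1, and that of *Elavl1* 0. Matches to the kB-like motif stood in 50.8% of all 32851 windows and in 7 of the 9 windows here. AP-1-like matches stood in 7.81% of all windows and in 2 of the 9, those of *Zfp36l1* and *Rc3h1*. A match describes letters in these windows and not a bound site.

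*Rc3h1* encodes Roquin-1, which binds stem-loops in mRNAs such as *Tnf* and *Icos*. Its brighter probe read 10.34 and 10.22 on the untreated arrays, 10.98 and 11.19 after LPS, and 11.16 and 11.36 after LPS+inhibitor, on the log2 scale. Its dimmer probe read 8.18 and 8.28, 8.70 and 9.22, and 9.29 and 9.70 in the same order. On both probes untreated arrays were the lowest. The brighter probe rose by 0.80 with LPS (SE 0.12, adjusted p = 0.0229), 1.74-fold, while the dimmer probe differed by 0.74 and did not pass (95% confidence interval 0.07 to 1.41, adjusted p = 0.142). The call of the brighter probe was lost when any one untreated or LPS array was left out (adjusted p from 0.0569 to 0.114). Both probes passed between LPS+inhibitor and untreated cells, at 0.97 (adjusted p = 0.0193) and 1.27 (adjusted p = 0.0485). The brighter probe did not pass without untreated replicate 1, untreated replicate 2, or LPS+inhibitor replicate 2 (adjusted p up to 0.101), and the dimmer probe did not pass in the fit of 2 groups or without any one of the 6 arrays (adjusted p up to 0.189).

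*Hnrnpd* encodes AUF1, whose isoforms bind AU-rich elements and are mostly linked to decay. Its log2 signal was 11.74 and 11.67 on the untreated arrays, 12.37 and 12.21 after LPS, and 12.12 and 12.38 after LPS+inhibitor. Both groups given LPS lay above untreated cells and overlapped each other. *Hnrnpd* rose by 0.59 with LPS (SE 0.12), 1.50-fold, close to the threshold (adjusted p = 0.0497), a call lost with the deposited values (adjusted p = 0.0751) and when any one untreated or LPS array was left out (adjusted p from 0.103 to 0.200), and its difference of 0.55 between LPS+inhibitor and untreated cells did not pass (95% confidence interval 0.21 to 0.89, adjusted p = 0.0710), although it passed in 4 of 14 alternatives (lowest adjusted p = 0.0216).

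*Elavl1* encodes HuR, which stabilizes mRNAs with AU-rich elements. Its brighter probe read 13.38 on both untreated arrays, 13.53 and 13.39 after LPS, and 13.60 and 13.84 after LPS+inhibitor, on the log2 scale. The difference of 0.08 with LPS had a 95% confidence interval from −0.23 to 0.39 (adjusted p = 0.746), and that of 0.26 with the inhibitor one from −0.05 to 0.57 (adjusted p = 0.305). These values depended on the scaling: with 75th percentile scaling they were 0.59 (adjusted p = 0.0501) and 0.026, and the difference between LPS+inhibitor and untreated cells, 0.34 (adjusted p = 0.161), became 0.62 (adjusted p = 0.0458). The dimmer probe ranged from 5.79 to 7.21 and passed the threshold in no comparison, with differences of 0.35, 0.62, and 0.97 for LPS minus untreated, LPS+inhibitor minus LPS, and LPS+inhibitor minus untreated; the last passed with 75th percentile scaling (adjusted p = 0.0464) and with dim probes left out (adjusted p = 0.0383).

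*Khsrp* encodes KSRP, a KH domain protein that brings decay enzymes to AU-rich mRNAs. Its brighter probe read 14.14 and 13.85 on the untreated arrays, 13.96 and 13.85 after LPS, and 14.33 and 13.88 after LPS+inhibitor, on the log2 scale, with the 3 groups overlapping. The difference with LPS was −0.09 (95% confidence interval −0.64 to 0.46, adjusted p = 0.887), and with 75th percentile scaling it was 0.45. The dimmer probe ranged from 4.60 to 5.62 and differed by 0.66 with LPS (95% confidence interval −0.06 to 1.38, adjusted p = 0.210). This value rested on single arrays, with 0.29 without untreated replicate 1 and 1.02 without untreated replicate 2, where it passed (adjusted p = 0.0345), and it was 0.19 with normexp.

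Against this, the second question was what the inhibitor changed in cells given LPS. Of the 12 probes, 1 was higher in LPS+inhibitor than in LPS, that of *Zfp36l2*, 0 were lower, and 11 did not pass. Over all probes, 4.66% were higher and 3.79% lower, and over probes well above background on all arrays 9.29% and 7.61%. An unadjusted p under 0.05 in the limma fit was found for 3 of the 12 probes. The same held for 12686 of all 55680 probes, and for 9032 of the 20720 probes well above background on all arrays. The median log2 difference was 0.23 over the 12 probes and −0.000980 over all probes. No member probe passed when either untreated or either LPS array was left out (0 of 12), and 2 passed without LPS+inhibitor replicate 2. The fit of only these 2 groups called 0 probes, with 6051 higher and 5206 lower at an unadjusted p under 0.05, so that these calls rest on the spread shared with the untreated arrays. Leaving out either untreated array in effect repeats this fit for these 2 groups.

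Between LPS+inhibitor and untreated cells, which share arrays with the comparisons above, 5 probes were higher, 2 were lower, and 5 did not pass. Over all probes 5.65% were higher and 7.34% lower (43.5% of calls higher, and 82.7% with 75th percentile scaling), and over probes well above background on all arrays 11.6% and 15.5%. Without either untreated array 3 of the 12 passed, and without either LPS array 4. *Zfp36* was higher by 2.36 (adjusted p = 0.00686), and *Zfp36l1* was lower, at −2.85 (adjusted p = 0.0290). The lower calls of both *Zfp36l1* and *Zfp36l2* were lost in the fit of 2 groups, which leaving out either LPS array in effect repeats. They were also lost when either untreated array was left out. The median log2 difference was 0.76 over the 12 probes and 0.000269 over all probes.

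**Figure D2:**
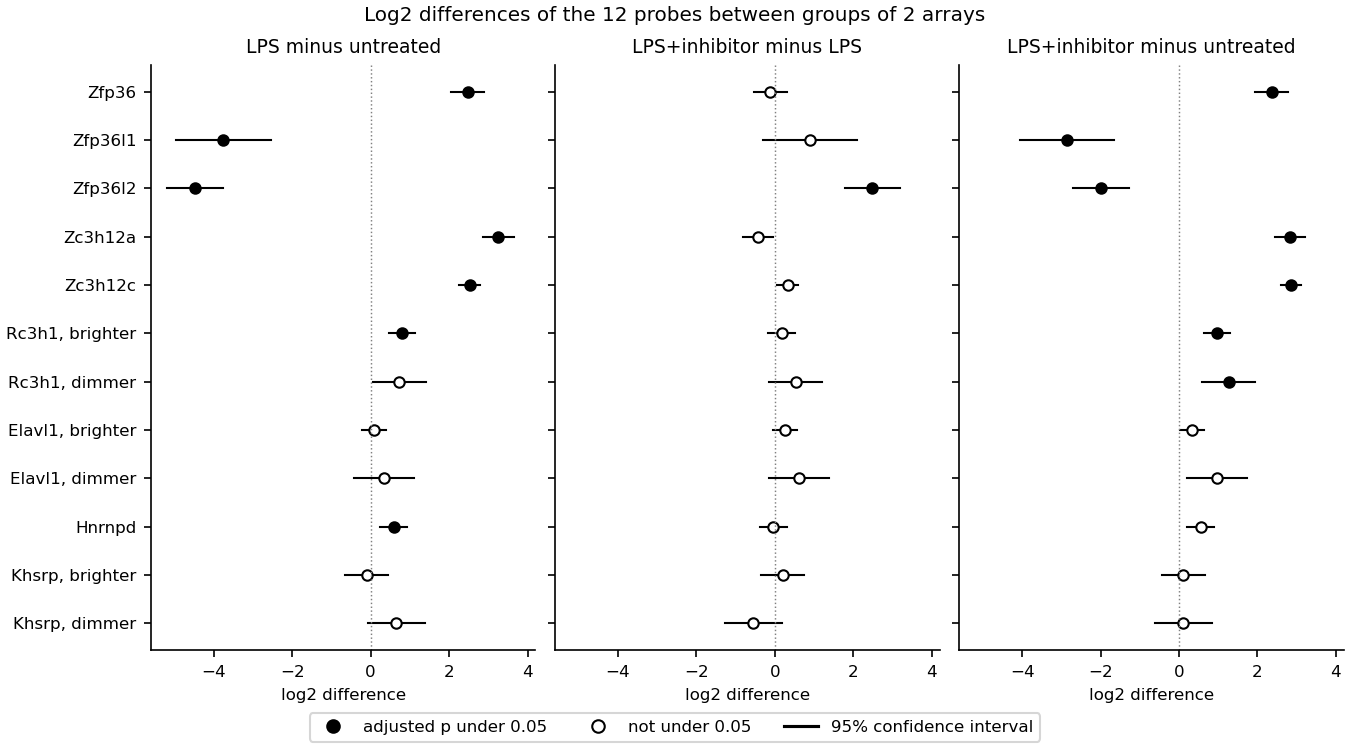
Log2 differences of the 12 probes in the 3 comparisons, with 95% confidence intervals as lines and filled circles where the adjusted p was under 0.05. Zfp36l2 is the only filled circle for LPS+inhibitor minus LPS, at 2.49, and lies on the other side of zero, at −4.48, for LPS minus untreated.

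The genes with the profiles closest to the members were found among 15628 named probes well above background on all 6 arrays, by Euclidean distance between centred log2 values. Closest to *Zfp36l2* were *Mnt* (distance 0.330), *Sh2d3c* (0.399), and *Tsc22d3* (0.488). For *Zfp36l1* they were *Engase* (0.549), *Tmem86a* (0.608), and *B3gnt8* (0.647), further off than for the other members. For *Zfp36* they were *Ralgds* (0.163), *Cgas* (0.172), and *Rnf19b* (0.215).

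Profiles nearest to *Zc3h12a* were those of *Sh3bgrl2* (0.369), *Noct* (0.389), and *Tank* (0.448), and nearest to *Zc3h12c* those of *Bcl2l11* (0.294), *Mafk* (0.313), and *Trim13* (0.349). *Noct* encodes a deadenylase-like protein, and *Tank* an adaptor of TRAF signaling. *Rc3h1* had *Frs2* (0.143) as its nearest, *Elavl1* *Gpatch4* (0.0846), *Hnrnpd* *Rnf121* (0.0974), and *Khsrp* *Hspa8* (0.0828). Likeness over 6 arrays does not speak to shared control.

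Genes that act with the members were taken from 6 lists, 122 genes in all, each gene by its brightest probe. In that form, 7.98% of all 34787 genes were higher and 12.8% lower with LPS, 5.52% were higher and 4.27% lower with the inhibitor relative to LPS, and 6.16% were higher and 8.71% lower in LPS+inhibitor relative to untreated cells. Most listed genes were well above background on all 6 arrays, and the shares over such probes were larger. These were 14.6% higher and 22.4% lower, 9.29% and 7.61%, and 11.6% and 15.5% in the same order. For LPS+inhibitor minus LPS, 26 of the 122 genes were called, and 12 with the replicate number as a block in the fit (a replicate block). More than 26 were called with normexp, with dim probes left out, with a trended prior, and with the deposited values. Of the 122 genes, 42 had further probes, and 0 of these had one called in the opposite direction. For 1 called gene, *Hnrnpa0*, a further probe well above background on all arrays had the opposite sign. Its probes differed by −0.61 (adjusted p = 0.0232) and 0.37 (adjusted p = 0.475) for LPS+inhibitor minus untreated. In a count made after the values were seen, of the called genes with a further probe well above background on all arrays, that probe was called in the same direction in 4 of 8 for LPS minus untreated, 0 of 4 for LPS+inhibitor minus LPS, and 4 of 12 for LPS+inhibitor minus untreated, so a call by the brightest probe often did not extend to the gene's other probes. Without 1 array, the number of pathway genes called ran from 25 to 51 for LPS minus untreated (55 with all arrays), from 0 to 20 for LPS+inhibitor minus LPS (26 with all arrays), and from 11 to 31 for LPS+inhibitor minus untreated (51 with all arrays). In the fit of 2 groups, which leaving out either untreated array in effect repeats, 0 genes of any list were called for LPS+inhibitor minus LPS.

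Of 18 regulators of the members, 5 were higher and 3 lower with LPS (median log2 difference 0.20; 0.00165 over all genes). *Mapkapk2* encodes the kinase MK2, which phosphorylates *Zfp36* and thereby blunts its activity. The log2 signal stood at 12.44 and 12.23 on the untreated arrays, 15.07 and 14.97 after LPS, and 13.67 and 13.77 after LPS+inhibitor. Thus it rose by 2.68 with LPS (adjusted p = 0.00281) and fell by 1.30 with the inhibitor (adjusted p = 0.0151). *Malt1*, the protease that cleaves Regnase-1, rose by 3.21 (adjusted p = 0.00639), and *Ikbkb*, the kinase that marks Regnase-1 for degradation, rose by 1.11 (adjusted p = 0.00494). With LPS *Map2k6* fell by 2.41 (adjusted p = 0.0218), *Chek2* fell by 1.67 (adjusted p = 0.00470), and *Irak1* fell by 0.40 (adjusted p = 0.0369), with *Map2k6* well above background on 1 of the 2 LPS arrays.

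With the inhibitor, 3 regulators were higher than in LPS and 3 lower (median −0.00595; 0.000908 over all genes). *Dusp1*, a phosphatase that switches off p38 and so favors active *Zfp36*, read 10.05 and 10.34 on the untreated arrays, 10.38 and 10.34 after LPS, and 13.02 and 12.41 after LPS+inhibitor. Only the inhibitor arrays stood apart, and *Dusp1* rose by 2.36 relative to LPS (SE 0.24, adjusted p = 0.0212), with 0.17 for LPS minus untreated (adjusted p = 0.776). *Chek2*, a kinase that phosphorylates HuR, rose by 0.97 (adjusted p = 0.0250) and *Ywhag* by 0.62 (adjusted p = 0.0418). *Ikbkb* fell by 1.29 (adjusted p = 0.0120). *Atm* fell by 2.74 (adjusted p = 0.0220), and its second probe, not well above background on all arrays, fell by 2.72 (adjusted p = 0.00987). Relative to untreated cells, 6 regulators were higher in LPS+inhibitor and 3 lower (median 0.087), and with 75th percentile scaling 8 were higher and 4 lower (median 0.33). Without any 1 array fewer were called in each direction. The median then ran from −0.12 without LPS+inhibitor replicate 2 to 0.34 without LPS+inhibitor replicate 1.

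Of 27 related RNA-binding proteins, 5 were higher and 3 lower with LPS (median 0.051), and with 75th percentile scaling 14 were higher and 3 lower (median 0.42). Without any one untreated or LPS array fewer were called in each direction, with medians from 0.014 to 0.072. *Arid5a*, which stabilizes *Il6* mRNA and counters Regnase-1, read 9.36 and 9.33 on the untreated arrays, 14.31 and 14.54 after LPS, and 12.77 and 13.29 after LPS+inhibitor. It rose by 5.08 with LPS (adjusted p = 0.00289) and fell by 1.39 with the inhibitor (adjusted p = 0.0375). *N4bp1*, an RNase that MALT1 also cleaves, rose by 3.68 (adjusted p = 0.00474) and *Syncrip* by 1.14 (adjusted p = 0.0250). *Zc3h12d*, a further Regnase, fell by 2.16 with LPS (adjusted p = 0.00713), opposite to *Zc3h12a* and *Zc3h12c*.

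*Fubp3* fell by 0.90 (adjusted p = 0.0230) and *Tial1* fell by 0.34 (adjusted p = 0.0429) with LPS. With the inhibitor, 2 of the 27 were higher than in LPS and 2 lower (median −0.057). *Hnrnpdl*, a paralog of *Hnrnpd*, rose by 0.90 (adjusted p = 0.0123), although its second probe differed by 0.20 (adjusted p = 0.238), and *Hnrnpc* rose by 0.49 (adjusted p = 0.0356). *Fubp1*, a KSRP relative, fell by 1.09 (adjusted p = 0.0313), while its second probe, not well above background on all arrays, differed by 0.46 (adjusted p = 0.646). In LPS+inhibitor relative to untreated cells, 5 were higher and 3 lower (median 0.14), and with 75th percentile scaling 10 were higher and 3 lower (median 0.31).

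The genes of the general decay machinery were all well above background on all 6 arrays, and are set beside the 22.4% lower and 14.6% higher of such probes with LPS. Of 19 deadenylases and their partners, 1 was higher and 6 were lower with LPS (median −0.32), and with 75th percentile scaling 2 were higher and 7 lower (median −0.15). Without either untreated array 0 were higher and 0 lower, and with the deposited values 0 were higher and 3 lower. The CCR4-NOT catalytic subunit *Cnot7* rose by 0.62 (adjusted p = 0.0330), while *Tob2* fell by 1.16 (adjusted p = 0.0357), *Cnot6l* fell by 1.13 (adjusted p = 0.0135), and *Pan2* fell by 0.85 (adjusted p = 0.0209). With the inhibitor, 2 were higher, *Tob2* by 1.49 (adjusted p = 0.0356) and *Btg1* by 0.84 (adjusted p = 0.0213), and 2 were lower, *Btg2* at −1.28 (adjusted p = 0.0452) and *Parn* at −0.59 (adjusted p = 0.0289), with a median of −0.00656. Tob and Btg proteins tether CCR4-NOT to its partners. Relative to untreated cells, 2 were higher in LPS+inhibitor and 5 lower (median −0.12).

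Of 17 genes for decapping and decay from the cap end, 3 were higher and 4 lower with LPS (median −0.18). This turned to 3 higher and 2 lower with 75th percentile scaling (median 0.031). With normexp 3 were higher and 7 lower (median −0.22). Without either untreated array 2 were higher and 0 lower, and with the deposited values 3 were higher and 1 was lower. *Dcp2*, the decapping enzyme, read 6.37 and 6.17 on the untreated arrays, 9.72 and 9.47 after LPS, and 8.31 and 8.89 after LPS+inhibitor. *Dcp2*, the exonuclease gene *Xrn1*, and the *Dcp2* partner *Dcp1a* rose by 3.32, 1.39, and 1.35 with LPS (adjusted p = 0.00519, 0.0212, and 0.00487), whereas *Dcp1b* fell by 1.10 (adjusted p = 0.0161). With the inhibitor, 0 were higher than in LPS and 3 lower (median 0.027). *Xrn1* fell by 1.54 (adjusted p = 0.0311), *Dcp1a* by 0.79 (adjusted p = 0.0256), and *Dcps* by 0.54 (adjusted p = 0.0377). These 3 calls were lost with a replicate block, where 0 were higher and 0 lower. The second *Dcps* probe, not well above background on all arrays, differed by 0.60 (adjusted p = 0.185). With normexp 1 was higher and 5 were lower. Relative to untreated cells, 3 were higher in LPS+inhibitor and 4 lower (median −0.13).

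Of 16 genes of the exosome and decay from the tail end, 1 was higher and 5 were lower with LPS (median −0.14), and with 75th percentile scaling 2 were higher and 4 lower, with a median of the other sign (0.046). Without either untreated array 0 were higher and 1 was lower, and with the deposited values 1 was higher and 3 were lower. *Exosc9* rose by 0.74 (adjusted p = 0.0130), while *Exosc6* fell by 1.42 (adjusted p = 0.00555), *Exosc7* fell by 1.24 (adjusted p = 0.0202), and *Exosc5* fell by 0.84 (adjusted p = 0.0104). With the inhibitor, *Exosc6* rose by 0.94 relative to LPS (adjusted p = 0.0248) and *Exosc9* fell by 0.52 (adjusted p = 0.0475), the 2 genes of this list that passed (median −0.040). Both calls were lost with a replicate block. Relative to untreated cells, 0 were higher in LPS+inhibitor and 5 lower (median −0.16).

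**Figure D3:**
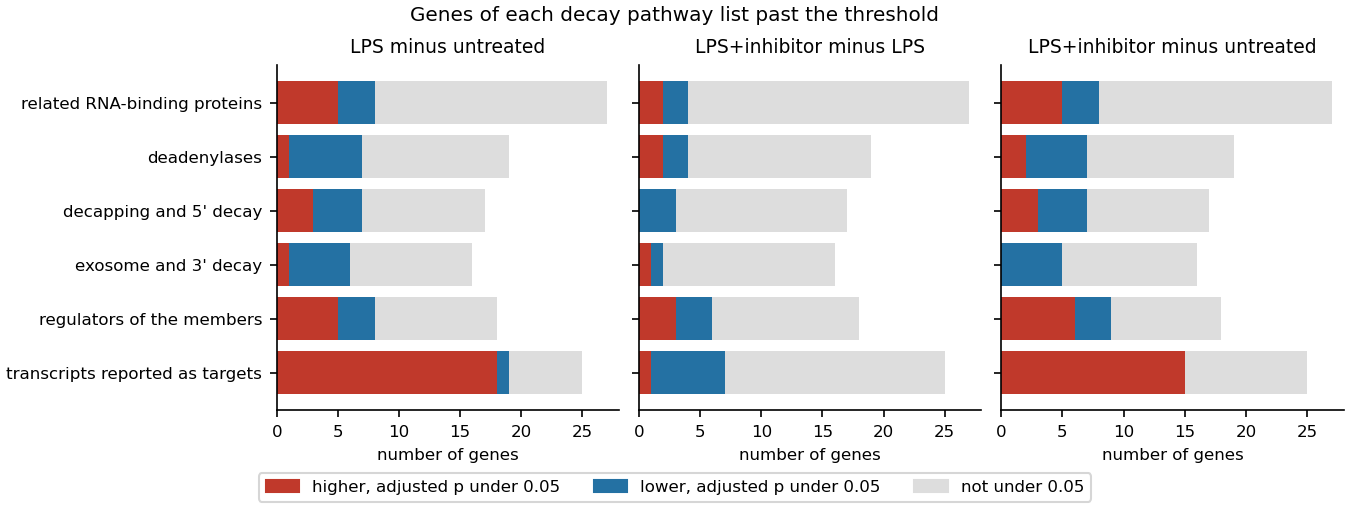
Number of genes of each list that were higher, lower, or not past an adjusted p of 0.05 in each comparison, each gene by its brightest probe. Transcripts reported as targets are mostly higher with LPS (18 of 25), while deadenylases have 6 lower and 1 higher of 19 with LPS and the exosome 5 lower and 1 higher of 16, beside 22.4% lower and 14.6% higher of probes as well detected; without either untreated array the counts were 0 and 0, and 1 lower and 0 higher.

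**Figure D4:**
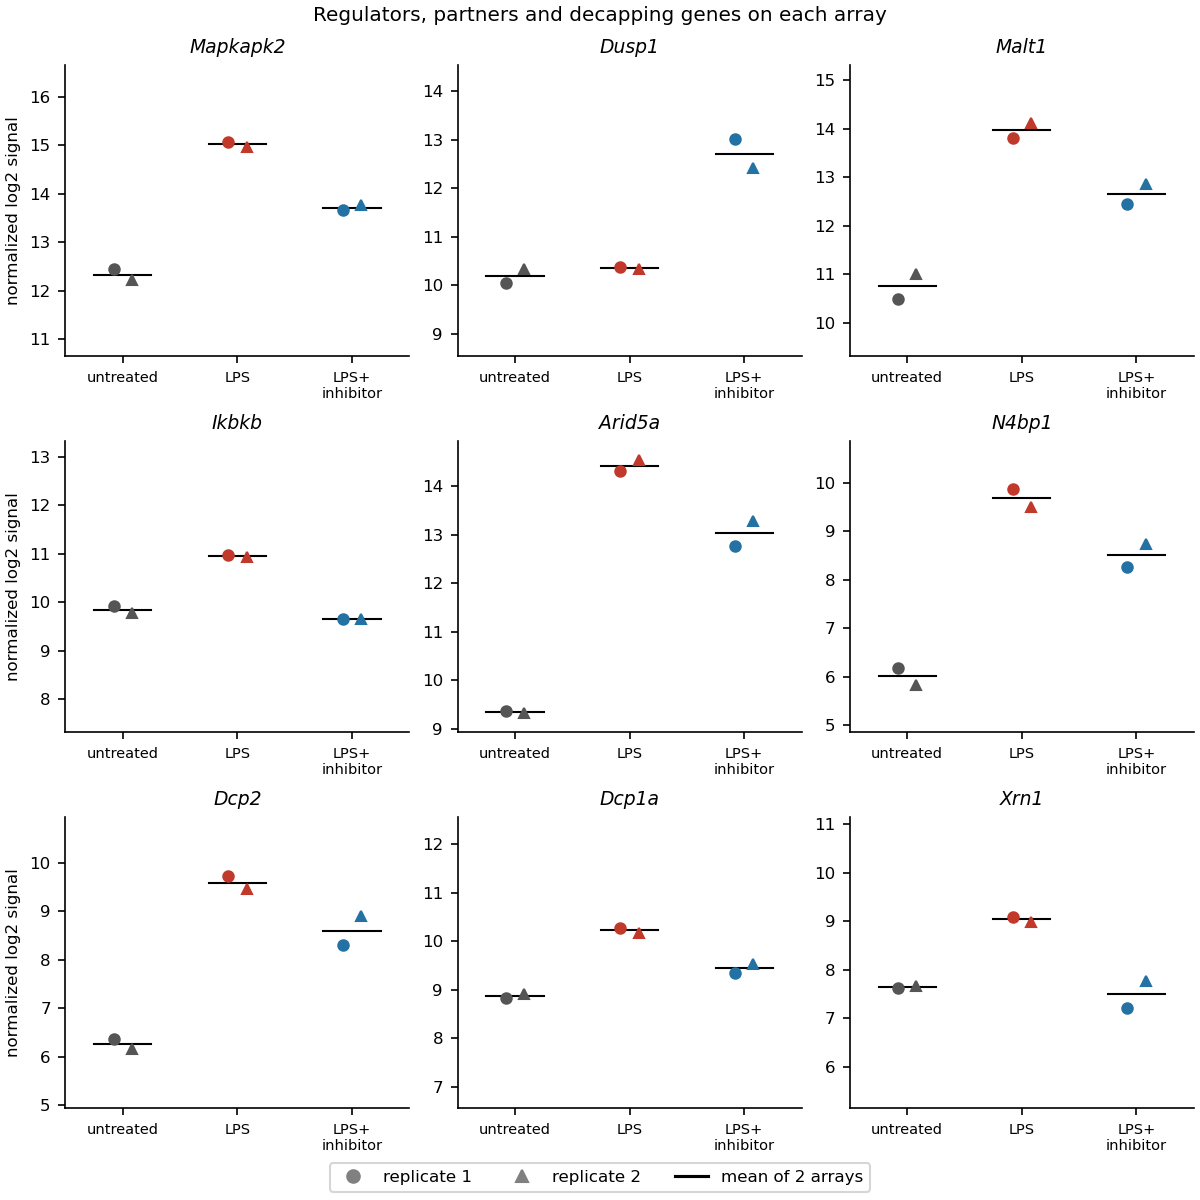
Normalized log2 signal on each array, by group, of regulators (Mapkapk2, Dusp1, Malt1, Ikbkb), RNA-binding partners (Arid5a, N4bp1), and decapping genes (Dcp2, Dcp1a, Xrn1), with circles for replicate 1, triangles for replicate 2, and a line at the mean; each panel spans 6 log2 units around its own gene. All but Dusp1 are higher with LPS than in untreated cells, and Dusp1 is higher on both LPS+inhibitor arrays only.

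The targets themselves were the last group. Of 25 transcripts reported elsewhere as targets of the members, 18 were higher and 1 was lower with LPS (median 4.50). *Il6*, *Ptgs2*, and *Il1b* rose by 11.86, 10.10, and 10.03 (adjusted p = 0.00326, 0.00258, and 0.00520), with *Ptgs2* well above background on 1 of the 2 untreated arrays. *Vegfa*, known to be bound by *Zfp36l1*, fell by 2.76 (adjusted p = 0.0162), a call lost when any one untreated or LPS array was left out. *Vegfa* read 9.34 and 9.47 on the untreated arrays, 6.70 and 6.59 after LPS, and 9.41 and 8.39 after LPS+inhibitor, lowest with LPS as were *Zfp36l1* and *Zfp36l2*.

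With the inhibitor, 1 target was higher than in LPS and 6 lower (median −0.78). The count of lower targets was 0 in the fit of 2 groups, which leaving out either untreated array in effect repeats. It also fell when any one LPS or LPS+inhibitor array was left out, while it was 12 with normexp, 12 with dim probes left out, and 10 with the deposited values. *Vegfa* rose by 2.26 (adjusted p = 0.0441). This call was lost in the fit of 2 groups, which leaving out either untreated array in effect repeats, with a replicate block, and without either LPS array. Its second probe differed by 2.43 and did not pass (adjusted p = 0.0729), nor did it with LPS (−1.50, adjusted p = 0.151). With the block 0 targets were higher and 3 lower, while with normexp 4 were higher. *Il12b* fell by 5.73 (adjusted p = 0.0477), *Csf2* fell by 2.95 (adjusted p = 0.0215), and *Il1a* fell by 2.65 (adjusted p = 0.0299), with *Csf2* well above background on 1 of the 2 LPS+inhibitor arrays. No untreated array had *Csf2* or *Il1a* well above background, so their rise with LPS is given as at least 12-fold and at least 139-fold, the mean of the LPS arrays against the lowest signals well above background on the untreated arrays (adjusted p = 0.00445 and 0.00317). Relative to untreated cells, 15 targets were higher in LPS+inhibitor and 0 lower (median 3.06).

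Some known targets of *Zfp36* are set beside it here. *Tnf* fell by 0.78 with the inhibitor (adjusted p = 0.0382), whereas *Cxcl1* and *Cxcl2* lay 0.91 and 1.02 above LPS and did not pass (adjusted p = 0.307 and 0.286). *Ier3* lay 1.36 above LPS (adjusted p = 0.151) and was 3.06 higher than in untreated cells (adjusted p = 0.0216). For LPS+inhibitor minus LPS the median over all 25 listed targets was −0.78. Among them *Il6* and *Il1b* differed by −2.55 and −3.82 and did not pass (adjusted p = 0.0831 and 0.0607). Over the same 2 groups *Zfp36* differed by −0.11 and *Zfp36l2* by 2.49.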

How the data were processed

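The members and lists were chosen with earlier results of these data known. Signals are 1-colour Agilent intensities: the authors' scanner software wrote the processed intensity after subtracting local background, per the file headers. These intensities were converted to log2, quantile normalized, and averaged per probe, with spots flagged as outliers left out. All 3 groups entered 1 fit in limma 3.58.1 (R 4.3.3), and p values were adjusted by Benjamini-Hochberg over 55680 probes, with 3 residual and 1.05 prior degrees of freedom. A gene with several probes is given by its brightest, and the other probes of members are given too; genes are named where they belong to a member or a fixed list. Probes were named by accession (26762), symbol (3819), synonym (639), or the name in the file (24461). The deposited log2 values, normalized by the authors, served only as an alternative; their medians ran from 5.03 to 5.06 and they correlated with the signals used here at 0.985 to 0.987. Further alternatives were 75th percentile scaling, normexp, dim probes left out, flagged spots kept, a fit of 2 groups, a replicate block, a trended prior, and the loss of each array.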

Additional observations from a re-analysis of the deposited data

How the results depend on the processing

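With 2 arrays per group, the smallest two-sided p of an exact permutation test is 0.333, so every call rests on the variance model, and without 1 array the lone array left is assumed to vary like the other groups. Replicates correlated at 0.996 (untreated), 0.993 (LPS), and 0.991 (LPS+inhibitor). For LPS minus untreated, 9895 probes, 7 member probes, and 55 pathway genes were called; without each array these ran from 4017 to 9177, 4 to 7, and 25 to 51. For LPS+inhibitor minus LPS, 4704, 1, and 26 were called, and 0 to 4558, 0 to 2, and 0 to 20 without each array. For LPS+inhibitor minus untreated, 7233, 7, and 51 were called, and 1557 to 5549, 3 to 6, and 11 to 31 without each array. Fewer arrays leave fewer degrees of freedom. Where the array left out is of the group not compared, the lone array left adds no spread. Such a fit in effect repeats the fit of 2 groups and is not a separate alternative for that comparison. The fit of 2 groups called 0 probes, 0 member probes, and 0 pathway genes for LPS+inhibitor minus LPS (6051 higher and 5206 lower at an unadjusted p under 0.05 in limma), and 4684, 4, and 28 for LPS+inhibitor minus untreated. With 75th percentile scaling 27437 probes were called for LPS minus untreated and 26542 for LPS+inhibitor minus untreated, as the median of all probes moved to 0.51 and 0.55 and the share of calls that were higher went from 39.9% to 79.3% and from 43.5% to 82.7%. For LPS+inhibitor minus LPS, normexp called 50 pathway genes, and with dim probes left out 7059 probes and 45 pathway genes were called; the cause was not tested. Deviations of the replicates from their group means correlated at 0.47, 0.40, and 0.42 between groups, and with a replicate block 10412, 3543, and 7575 probes and 49, 12, and 48 pathway genes were called in the 3 comparisons; *Hnrnpd* did not pass for LPS minus untreated with the block (adjusted p = 0.0912), so that 6 member probes were called in place of 7. Some small log2 differences changed sign. The brighter *Khsrp* probe gave 0.449 for LPS minus untreated and −0.0304 for LPS+inhibitor minus LPS with 75th percentile scaling. Without each array it ran from −0.237 (without untreated replicate 2) to 0.0515 (without untreated replicate 1) for LPS minus untreated, from −0.0251 (without LPS+inhibitor replicate 1) to 0.425 for LPS+inhibitor minus LPS, and from −0.118 (without LPS+inhibitor replicate 1) to 0.332 for LPS+inhibitor minus untreated. The dimmer *Khsrp* probe gave −0.0433 with normexp for LPS+inhibitor minus untreated, and from −0.253 to 0.475 without each array. For LPS+inhibitor minus LPS, *Hnrnpd* ran from −0.172 to 0.0948 and *Zfp36* from −0.232 to 0.00818 without each array.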
